A study of Mus musculus with 4 samples.

Results

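The cell cycle genes described here are 34 named genes, all of which were found among the 32285 genes of the deposited single-cell count matrices. They comprise 18 genes whose transcripts peak in G2 and mitosis, called the G2/M genes below, and 16 genes of the G1 to S transition and of DNA replication, called the G1/S genes. Cells came from the subdural meninges peeled off the cerebellum of neonatal mice on a C57/BL6 background. All animals carried the Neurod2-SmoA1+/- transgene, in which the Neurod2 promoter drives an activated Smoothened in the granule neuron lineage, so the controls carry it too. The controls were NdpWT; Neurod2-SmoA1+/- and the other group was NdpKO; Neurod2-SmoA1+/-, which carries a knockout of Ndp, the gene for the secreted Frizzled ligand Norrin. The sample fields give an age of P6 to P8 and the protocol gives P7 to P9. Each group had 2 libraries, and each library was a separate run on 5 pooled cerebella from 3 litters, after digestion in 2.5 mg/mL Dispase II and a 22% Percoll step. The labels say that control and knockout runs were litter matched, without saying which library matches which.

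A dividing cell licenses its replication origins in G1, copies its DNA in S phase and separates the copies in mitosis. The Mcm helicase subunits, the licensing factors Cdc6 and Cdt1, the E cyclins Ccne1 and Ccne2 and the DNA synthesis genes Pcna, Tyms and Rrm2 are expressed under E2F control as cells enter S phase. The B cyclins, their kinase Cdk1 and the genes of the spindle, the kinetochore and chromosome condensation are expressed later, and their transcripts are degraded or diluted after division. In the neonatal cerebellum, granule cell progenitors of the external granule layer divide in response to Sonic hedgehog, which signals through Smoothened. GABAergic interneuron precursors, marked by Pax2, divide on their way through the white matter and then exit the cycle.

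Promoter sequences of the cell cycle genes hold the motifs by which these waves of expression are usually described. Promoters were matched in RefSeq (GRCm38.p6) for 29 of the 34 genes, as windows of 300 bases, from 250 before to 50 after the start. Both strands were searched for the cell cycle homology element CHR (TTTGAA) and its variant (TTCGAA), for the CCAAT box (CCAAT), and for E2F matches (TTTGGCGC, TTTGCCGC, TTTCGCGC or TTTCCCGC). The CHR or its variant lay in 12 of 16 G2/M promoters (75%), in 2 of 13 G1/S promoters (15.4%) and in 19.2% of all 32851 promoters. A CCAAT box lay in 87.5% of the G2/M promoters, 61.5% of the G1/S promoters and 37.4% of all promoters. An E2F match lay in 7 of 13 G1/S promoters (53.8%), 1 of 16 G2/M promoters (6.25%) and 2.26% of all promoters. A match is a description of the letters and not a shown binding site. The 12 G2/M promoters with a CHR or its variant all held a CCAAT box too, those of Ccnb1 and Cenpe held CCAAT boxes alone, and those of Birc5 and Nusap1 held none of these motifs. The 5 sequences below are shown because Cdk1, Kif11, Top2a and Hmmr are among these 12 and have levels described below, while Mcm6 stands for the G1/S genes. Each is the 120 bases before the more upstream of the RefSeq and GENCODE M21 gene starts, 5′ to 3′ on the gene's own strand. Capitals mark the matches, in either orientation, so that a CCAAT box may read ATTGG and the CHR may read TTCAAA.
Cdk1 (chr10:69352939-69353058, minus strand): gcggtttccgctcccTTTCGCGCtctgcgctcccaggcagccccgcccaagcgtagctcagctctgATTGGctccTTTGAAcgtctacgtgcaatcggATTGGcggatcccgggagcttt
Kif11 (chr19:37376262-37376381, plus strand): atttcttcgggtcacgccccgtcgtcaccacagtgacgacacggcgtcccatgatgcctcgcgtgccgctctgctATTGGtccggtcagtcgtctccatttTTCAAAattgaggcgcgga
Top2a (chr11:99024190-99024309, minus strand): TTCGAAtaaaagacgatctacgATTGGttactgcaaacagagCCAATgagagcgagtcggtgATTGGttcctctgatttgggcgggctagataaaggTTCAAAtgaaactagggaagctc
Hmmr (chr11:40733438-40733557, minus strand): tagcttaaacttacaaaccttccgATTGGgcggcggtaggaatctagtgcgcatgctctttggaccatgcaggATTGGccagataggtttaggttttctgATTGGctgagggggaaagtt
Mcm6 (chr1:128359706-128359825, minus strand): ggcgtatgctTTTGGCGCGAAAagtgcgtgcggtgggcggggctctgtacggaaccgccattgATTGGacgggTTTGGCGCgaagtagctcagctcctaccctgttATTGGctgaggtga
Cdk1 held 2 CCAAT boxes, 1 CHR and 1 E2F match, Kif11 held 1 CCAAT box and 1 CHR, and Top2a held 3 CCAAT boxes, 1 CHR and 1 CHR variant. Hmmr held 3 CCAAT boxes in this stretch, and its CHR lay outside it. Mcm6 held 2 CCAAT boxes and 3 E2F matches, of which the first 2 overlap.

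The 4 libraries held 114363848 to 125981161 unique molecular identifiers (UMIs, each counted once per captured transcript). After filters on genes, UMIs and mitochondrial share and removal of called doublets, 9107 and 12547 NdpWT cells and 5605 and 10722 NdpKO cells remained. NdpKO replicate 1 stood apart: 44.1% of its barcodes were kept, against 64.8% to 67.0% in the others, and its median depth was 14290 UMIs per cell against 7224 to 9467. Levels are given in CPM, the UMIs of a gene for a fixed number of UMIs in the library, or below in the class of a library. Summed levels in a class used all its UMIs. Levels of single genes in a class used the UMIs of the genes tested, scaled by edgeR's TMM method. Ndp itself was at 2.06 and 1.36 CPM in NdpWT and at 0.411 and 0.467 in NdpKO. This goes with the labels, although the sources used here do not give which part of the gene is deleted. Pairs of libraries shared 15 to 48 cell barcodes among the kept cells. Classes of cells were clusters that resemble a cell type by its markers, built without the cell cycle genes and the genes that follow them. Between 29.2% and 34.5% of the cells of a library stayed without a class name, and these held much of the cycling RNA. Their summed G2/M level was 3561 to 4181 CPM (NdpWT 4113 and 3561, NdpKO 3645 and 4181). Among them, a cluster of 2852 cells, closest to granule neurons by its markers, had 5240 and 5166 CPM in NdpWT and 6092 and 5602 CPM in NdpKO. In every library it lay above the granule cell progenitors described below, and it entered no test by genotype. The cell cycle genes as a whole made up 2614 and 3007 CPM of the NdpWT libraries and 2385 and 3005 CPM of the NdpKO libraries, which overlap.

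Granule cell progenitors carried the highest cell cycle level of the 10 named classes tested. The summed level of the 18 G2/M genes was 4249 and 4448 CPM in NdpWT and 4511 and 4984 CPM in NdpKO, or 4349 ± 141 and 4748 ± 334 (SD, n = 2). The summed level of the 16 G1/S genes was 2220 and 1978 CPM in NdpWT and 2252 and 2217 CPM in NdpKO. Both knockout libraries were above both controls in the G2/M sum, and the G1/S sums overlap. Next in the order of G2/M level came erythroid cells (1405 to 1974 CPM), and granule neurons were lowest at 304 to 799 CPM. Erythroid cells also held granule cell markers, at 34.3% and 30.3% in NdpWT and 22.1% and 33.6% in NdpKO. These are percentages of the marker level in granule cells of the same library. The part of granule cell RNA in the erythroid level was not tested. The granule neuron class held a cluster of 803 cells of low depth, with a median of 1751 UMIs. Its G2/M level was 1907 and 3374 CPM in NdpWT and 4518 and 2082 CPM in NdpKO, so the class was not free of cycling RNA. Macrophages (659 to 948 CPM), endothelial cells (529 to 1199 CPM) and interneurons (401 to 1511 CPM) lay between, with overlapping ranges.

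**Figure D1:**
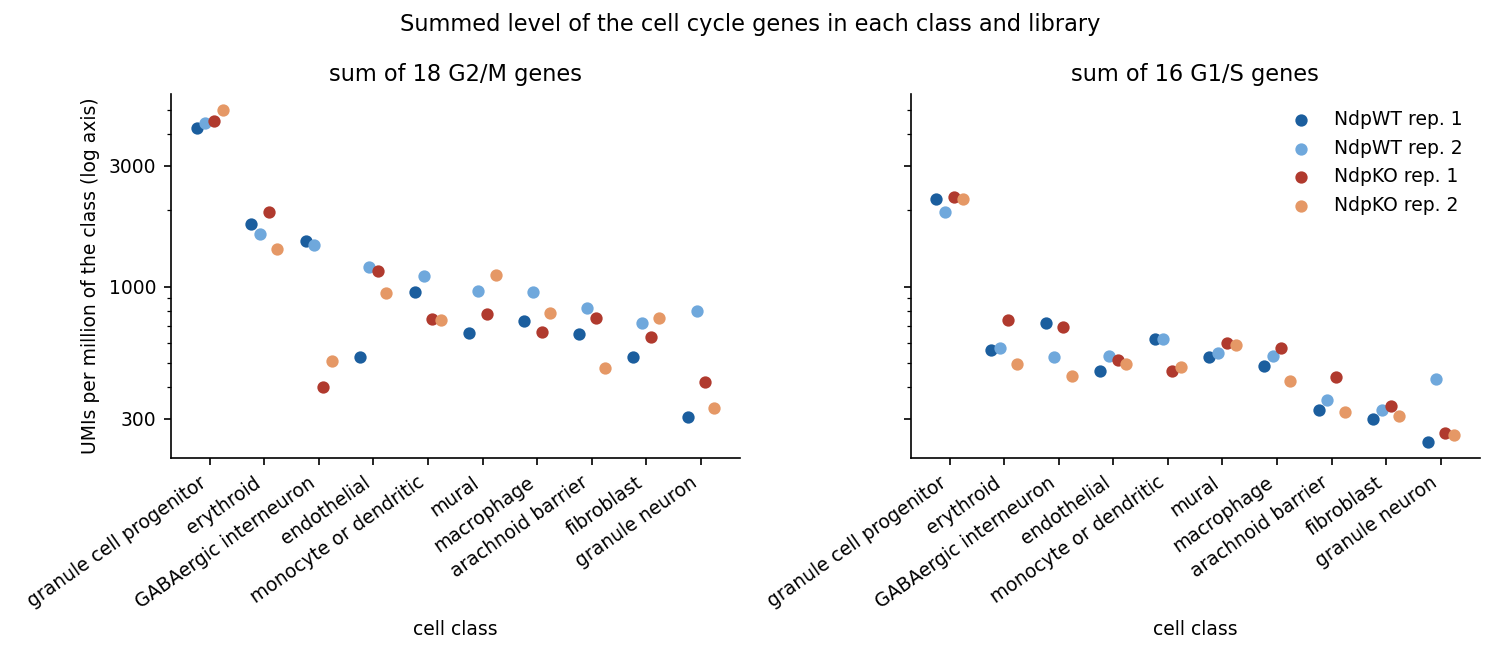
Summed level in CPM of the class (log axis) of the 18 G2/M genes and of the 16 G1/S genes, one point per library, for 10 cell classes in the order of the mean G2/M level. Granule cell progenitors are highest in all 4 libraries, and the interneuron class is the one where the NdpKO points (401 and 508 CPM) sit far below the NdpWT points (1511 and 1461 CPM) for G2/M.

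The difference between classes was tested with the library as a block. All 34 cell cycle genes were lower in macrophages than in granule cell progenitors (edgeR's quasi-likelihood test, adjusted p under 0.05), where 43.2% of all genes tested were called lower and 41.2% higher. The median log2 difference was -2.13 for the G2/M genes and -1.95 for the G1/S genes. The gap was smallest for Pcna, the sliding clamp of DNA polymerase, at -0.75 ± 0.07 (SE), and for Cdk1, at -0.94 ± 0.07. It was largest for Rrm2, the small subunit of ribonucleotide reductase, at -2.77 ± 0.12. All 34 were also lower in endothelial cells than in granule cell progenitors, against 40.9% of all genes lower and 38.6% higher, with medians of -2.10 for both sets. There the smallest gap was that of Ccnb2, a B cyclin, at -1.20 ± 0.17. In interneurons 30 of 34 were lower, against 28.1% of all genes lower and 26.7% higher, and the 4 that did not pass were Aspm, Hmmr, Ccnb1 and Cenpe. Their log2 differences were large too, at -1.66 ± 0.63, -2.12 ± 0.74, -2.15 ± 0.63 and -2.03 ± 0.59 (SE). The fit held no term for genotype within a class, and these 4 genes differed by genotype in interneurons, as described below. DESeq2 called all 34 lower there. Leaving out any 1 library brought the interneuron count to between 22 and 26.

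In granule cell progenitors no cell cycle gene differed between genotypes past the threshold. The edgeR test called 0 of 34 genes, DESeq2 called 0, and 2 genes had an unadjusted p under 0.05, while 0.0577% of the 13865 genes tested were called higher and 0.13% lower. The median log2 change of the 34 genes was 0.08, and it was -0.0020 over all genes tested. Top2a, the topoisomerase that untangles sister DNA, was at 783 and 769 CPM in NdpWT and 859 and 902 CPM in NdpKO. Its libraries did not overlap, but the change of 0.18 ± 0.15 (SE, log2) did not pass. Mki67, the coat protein of mitotic chromosomes used as a proliferation marker, was at 637 and 780 CPM in NdpWT and 722 and 825 CPM in NdpKO, which overlap. Its change was 0.13 ± 0.15. Pcna was at 319 and 276 CPM in NdpWT and at 412 and 338 CPM in NdpKO, so both knockout libraries were higher. Its change of 0.33 ± 0.15 had an unadjusted p of 0.0376 and an edgeR adjusted p of 1.00. Mcm7, a subunit of the replicative helicase, was at 261 and 235 CPM in NdpWT and 248 and 241 CPM in NdpKO, and these overlap. Cdk1 had the other unadjusted p under 0.05, at 140 and 116 CPM in NdpWT and 162 and 154 CPM in NdpKO. Both knockout libraries lay above both controls for 11 of the 34 genes, against 14.3% of all genes tested.

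The share of cells with UMIs from at least 3 of the 18 G2/M genes was compared after thinning every cell to 3000 UMIs and leaving out shallower cells. In granule cell progenitors it was 55.1% and 54.2% in NdpWT and 56.1% and 60.6% in NdpKO, with 29, 32, 7 and 25 cells left out. Without thinning it was 73.3%, 72.0%, 77.0% and 78.6%. The log2 change of 0.10 ± 0.07 had an edgeR adjusted p of 0.466 over 10 classes. For comparison, granule neurons gave 3.67%, 8.91%, 3.74% and 2.92% after thinning. Of the 57 granule neurons counted so in NdpWT replicate 2, 32 lay in the cluster of low depth. Unthinned median depths were 5065 to 10917 UMIs in granule neurons and 10630.5 to 21517 in progenitors. An exact permutation test of 2 against 2 libraries cannot go below 0.333 for any class. Of the progenitors with at least 3 G2/M genes, 75.7% to 79.0% also had at least 3 G1/S genes.

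**Figure D2:**
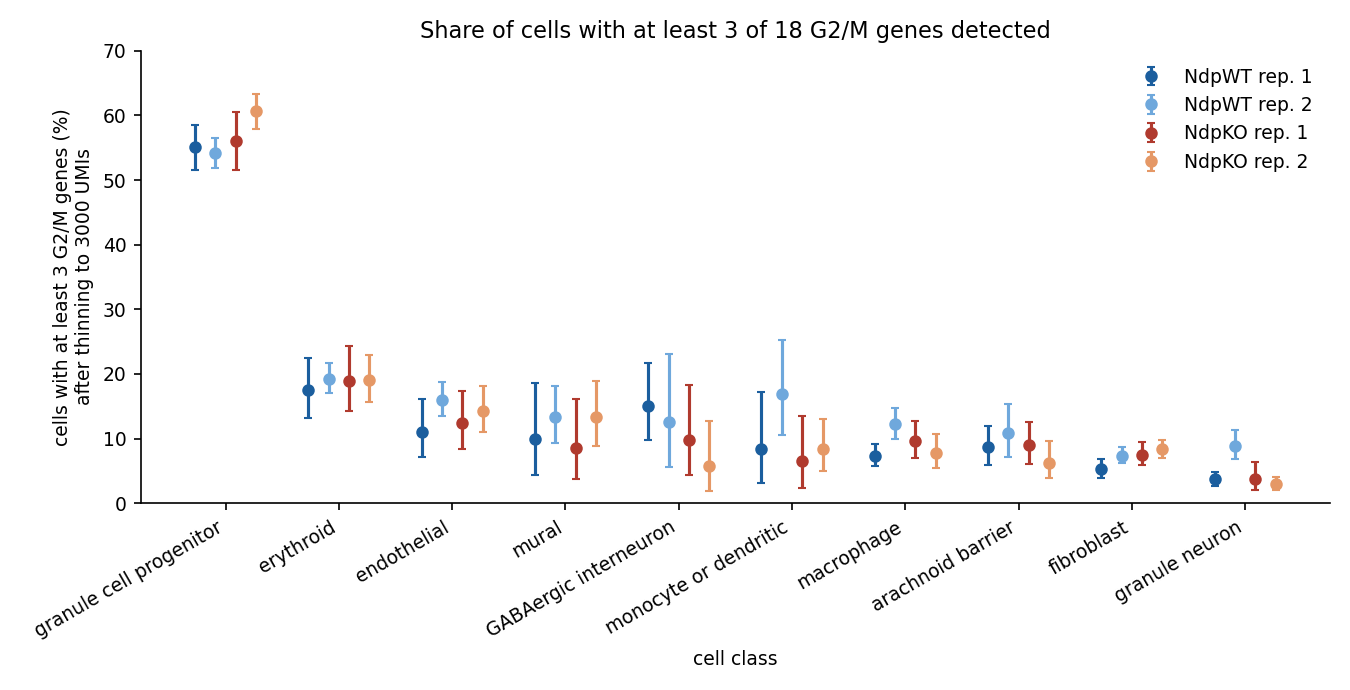
Percentage of cells with at least 3 of 18 G2/M genes detected after thinning to 3000 UMIs, by cell class and library. Bars are exact (Clopper-Pearson) 95% binomial intervals, which cover counting error only. Granule cell progenitors sit between 54.2% and 60.6% and the other classes shown at 19.2% or below.

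GABAergic interneurons were the class in which cell cycle genes differed between genotypes, and the difference lay among the G2/M genes. The summed G2/M level was 1511 and 1461 CPM in NdpWT and 401 and 508 CPM in NdpKO. The summed G1/S level was 719 and 529 CPM in NdpWT and 694 and 443 CPM in NdpKO, which overlap. Of the 29 genes with enough UMIs to test, edgeR called 12 lower and 0 higher in NdpKO, where 0.271% of the 8843 genes tested were lower. DESeq2 called 8 lower. All 12 were among the 16 G2/M genes tested, and the other 4, Cdk1, Plk1, Bub1 and Tpx2, had an unadjusted p under 0.05 in the same direction. The filter on low counts asked for about 10.9 CPM in 2 libraries, and 4 of the 16, Ccnb1, Hmmr, Plk1 and Bub1, met it through the NdpWT libraries alone, so they could enter the test only by being high there. Of these 4, Ccnb1 and Hmmr were called, and the other 10 calls fell among the 12 genes that met it in at least 1 NdpKO library too. Without this filter 15 of all 18 G2/M genes and 0 of all 16 G1/S genes were called lower, against 0.416% of 17542 genes, and the median log2 change of the 18 was -1.90. With the filter the 13 G1/S genes tested had a median of -0.21, and 0 of them had an unadjusted p under 0.05. Both knockout libraries lay below both controls for 19 of the 29 genes, against 17.2% of all genes tested. Aurka, Aurkb, Cdc6, Ccne1 and Ccne2 had too few UMIs here to test.

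The call rests on few cells. Of the 525 cells in the class, 36 had UMIs from at least 8 of the 18 G2/M genes, a count chosen after seeing the distribution, and these held 85.2% of the G2/M UMIs of the class. That share was 90.2% and 88.8% in the NdpWT libraries and 65.7% and 69.5% in the NdpKO libraries. The summed G2/M level of the other cells was 181 and 194 CPM in NdpWT and 152 and 168 CPM in NdpKO. The 36 cells numbered 19 and 7 in NdpWT and 6 and 4 in NdpKO, of 225, 81, 93 and 126 cells (8.44%, 8.64%, 6.45% and 3.17%). The summed G2/M level inside these cells was also lower in NdpKO, at 2759 and 4577 CPM against 7398 and 8288 CPM in NdpWT. Cells with at least 12 of the 18 genes numbered 14 and 6 in NdpWT and 1 and 2 in NdpKO. The 5 cells with most G2/M UMIs held 53.0% and 78.3% of them in the NdpWT libraries and 62.1% and 73.5% in the NdpKO libraries. The same 36 cells carried fewer signs of an interneuron than the rest of the class. Pax2 was detected in 8 of them (22.2%) and in 294 of the other 489 cells (60.1%). By library it was detected in 1 of 19 and 3 of 7 of these cells in NdpWT and in 3 of 6 and 1 of 4 in NdpKO, so without NdpWT replicate 1 the shares were 41.2% of 17 cells and 65.4% of the other 283. Of the 36 cells, 18 had no UMI of Pax2, Gad1, Gad2 or Slc32a1, the defining GABAergic genes, and 14 of these 18 were from NdpWT replicate 1. Among the other 489 cells, 99 had none. The summed level of 10 interneuron markers was 626 to 1270 CPM in the cells with many G2/M genes and 2058 to 2421 CPM in the others. Markers of astroglia and of granule cell progenitors were higher in them in all 4 libraries, and markers of granule neurons were lower in 3 of 4. The summed level of astroglia markers was 2133 and 400 CPM in NdpWT and 930 and 823 CPM in NdpKO, against 794, 235, 694 and 343 CPM in the other cells of the same libraries. That of granule cell progenitor markers was 415 and 607 CPM in NdpWT and 1030 and 329 CPM in NdpKO, against 232, 179, 260 and 210 CPM. Of the 19 cells of NdpWT replicate 1, 0 had a UMI of Gad1. When the cell cycle genes were kept in the clustering, 3 of the 36 cells stayed in the class and 30 moved to clusters of granule cell progenitors. Then 0 cell cycle genes were called by edgeR, with a median log2 change of -0.20 over the 7 G2/M genes tested, of which 0 had an unadjusted p under 0.05. That clustering could draw on the tested genes themselves, so the loss of the calls was partly built in. In a setting added after seeing the data, only the 155, 68, 79 and 106 cells with a UMI of Pax2, Gad1, Gad2 or Slc32a1 were summed. Their summed G2/M level was 654 and 1266 CPM in NdpWT and 332 and 448 CPM in NdpKO, so NdpWT replicate 1 dropped most and the genotypes did not overlap. There edgeR also called 0 genes, with 13 of 14 G2/M genes negative, 10 with an unadjusted p under 0.05, a median of -1.65 and a smallest adjusted p of 0.0717. Whether fewer dividing interneurons, a lower level in each dividing cell or the placement of other dividing cells in this class lies behind the result was not tested.

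**Figure D3:**
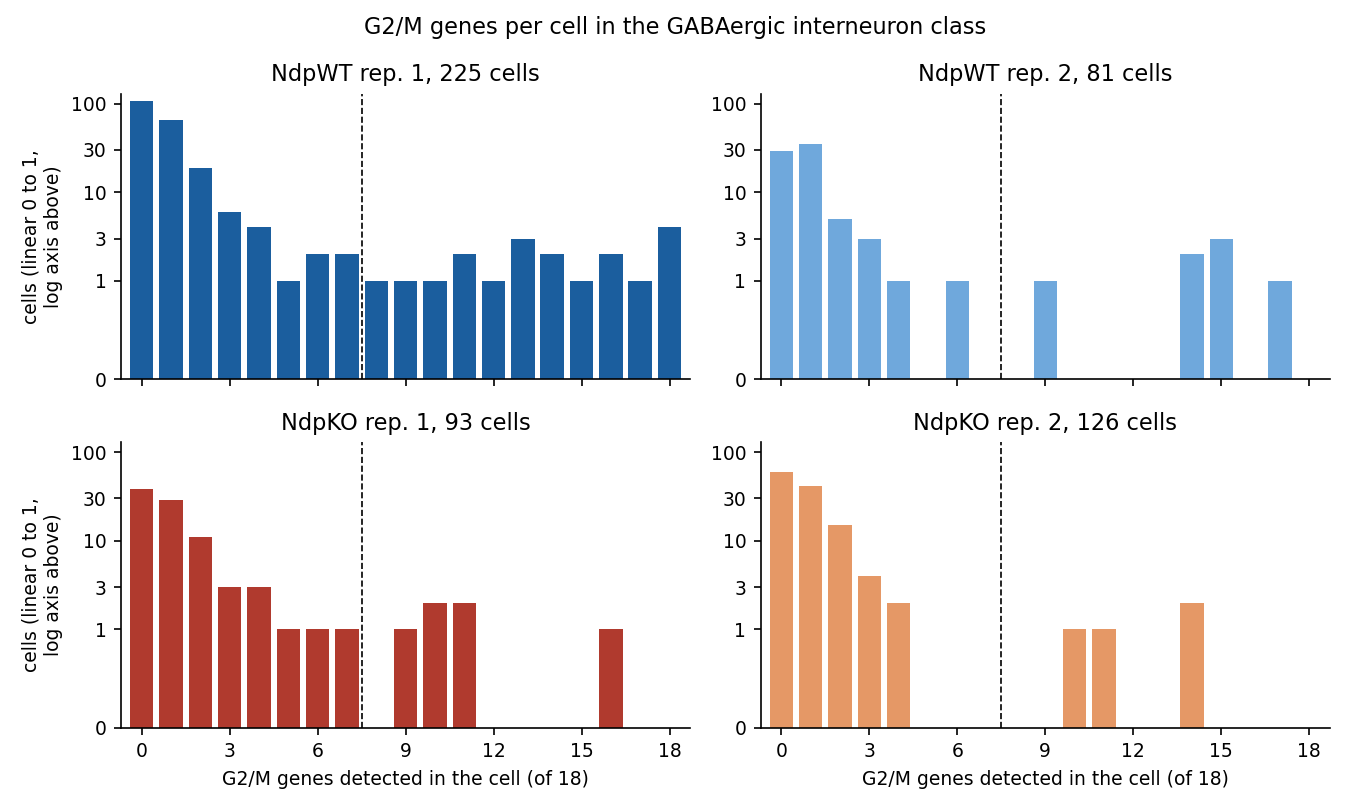
Number of cells in the GABAergic interneuron class (axis linear from 0 to 1 and logarithmic above) by the number of G2/M genes detected in the cell, for each library. The dashed line separates cells with fewer than 8 genes from the 36 cells with 8 or more, of which 19 and 7 are in the NdpWT libraries and 6 and 4 in the NdpKO libraries.

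With these cells included, the 5 genes of lowest p were spindle, kinetochore and cyclin genes. Aspm, a spindle pole protein of dividing neural precursors (chr1:139454772-139494091, GRCm38, plus strand), was at 65.3 and 94.1 CPM in NdpWT and 12.6 and 11.5 CPM in NdpKO. It fell by 2.64 ± 0.33 on the log2 scale (SE, edgeR adjusted p = 0.00327). Cenpe, the kinetochore motor that aligns chromosomes (chr3:135212537-135273611, plus strand), was at 98.3 and 123 CPM in NdpWT and 18.4 and 28.2 CPM in NdpKO. Cenpe fell by 2.24 ± 0.29 (edgeR adjusted p = 0.00327). Neither gene overlapped between genotypes. Cenpf, a large kinetochore and microtubule binding protein (chr1:189640606-189688086, minus strand), was at 255 and 228 CPM in NdpWT and 71.6 and 94.95 CPM in NdpKO. It fell by 1.56 ± 0.20 (edgeR adjusted p = 0.00327). Hmmr, a microtubule binding protein of the spindle (chr11:40701395-40733422, minus strand), was at 58.8 and 58.2 CPM in NdpWT and 2.90 and 10.3 CPM in NdpKO. The 2.90 CPM of NdpKO replicate 1 is 3 UMIs. Hmmr fell by 3.23 ± 0.43 (edgeR adjusted p = 0.00327). Ccnb1, the B cyclin that activates Cdk1 at mitotic entry (chr13:100778650-100786570, minus strand), was at 52.4 and 62.7 CPM in NdpWT and 9.68 and 7.70 CPM in NdpKO. Ccnb1 fell by 2.65 ± 0.36 (edgeR adjusted p = 0.00337), and its knockout values are 10 and 6 UMIs. With any 1 library left out, the log2 changes of these 5 genes ranged from -4.28 to -1.36. Those fits reuse the libraries by which the 5 were chosen, so they are no separate support.

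The other 7 genes called were Kif11, Nusap1, Ube2c, Birc5, Mki67, Top2a and Ccnb2. Kif11, the motor that pushes spindle poles apart, was at 56.3 and 69.4 CPM in NdpWT and 12.6 and 12.8 CPM in NdpKO. Ube2c, the ubiquitin-conjugating enzyme of the anaphase-promoting complex, was at 159 and 134 CPM in NdpWT and 20.3 and 50.04 CPM in NdpKO. Birc5, the survivin subunit of the chromosomal passenger complex, was at 80.2 and 80.6 CPM in NdpWT and 21.3 and 28.2 CPM in NdpKO. Top2a had the smallest change of the 12, -1.10 ± 0.20. Among the 4 G2/M genes tested but not called, Plk1, a mitotic kinase, was at 25.9 and 15.7 CPM in NdpWT and 3.87 and 5.13 CPM in NdpKO. Of the G1/S genes, Pcna was at 111 and 80.6 CPM in NdpWT and 134 and 79.6 CPM in NdpKO, and Hells, a chromatin remodeller, was at 67.3 and 73.9 CPM against 60.002 and 60.3 CPM. Among other genes of the cycle, listed with earlier results known, 10 of 48 tested G2/M genes were lower and 0 higher, with a median of -1.28, and 0 of 33 tested G1/S genes were called. Of those 33, 2 had an unadjusted p under 0.05, both lower. The 3 of lowest p were Prc1, the bundler of the spindle midzone (-2.21 ± 0.25, edgeR adjusted p = 0.00220), Cenpa, the centromeric histone (-1.91 ± 0.26), and Hmgb2, a chromatin protein (-1.22 ± 0.18). Together the cell cycle genes and these lists made up 22 of the 24 genes called in the class.

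**Figure D4:**
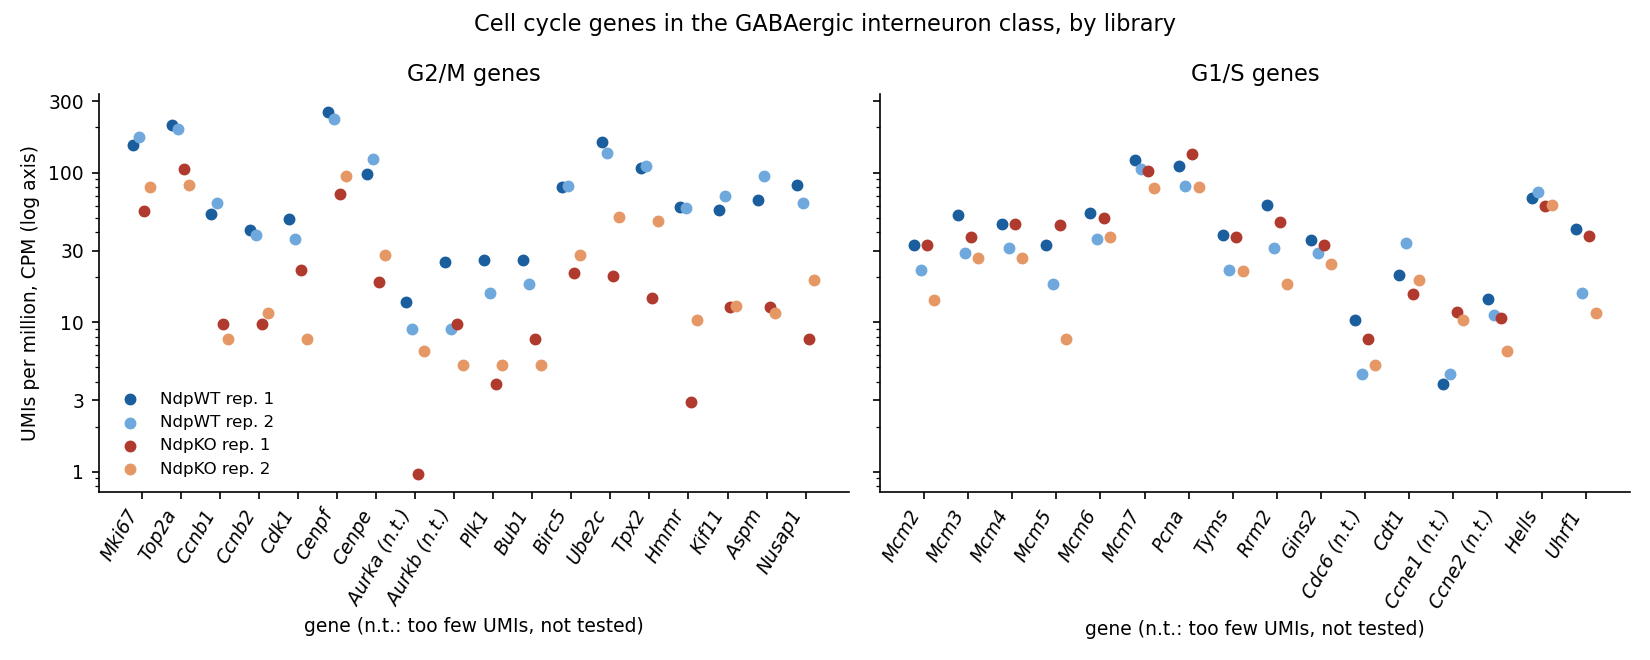
Level in CPM (log axis) of each G2/M and G1/S gene in the GABAergic interneuron class, one point per library. The NdpKO points lie below the NdpWT points for all 16 tested G2/M genes, against 17.2% of all genes tested in the class. The points of most G1/S genes overlap.

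The share of interneurons with at least 3 G2/M genes did not differ past the threshold. It was 15.03% and 12.5% in NdpWT and 9.76% and 5.68% in NdpKO after thinning, with 72, 17, 11 and 38 cells left out. Both knockout libraries were lower, and their 95% exact intervals, 4.31% to 18.3% and 1.87% to 12.8%, overlapped those of the controls. The log2 change was -0.87 ± 0.62 (SE, edgeR adjusted p = 0.466). Without thinning the shares were 15.1%, 14.8%, 16.1% and 7.94%, so NdpKO replicate 1, the deepest library, then lay above both controls. Granule neurons were at 2.92% to 8.91% after thinning. Markers of granule cells in interneurons summed to 25.8%, 30.8%, 33.0% and 31.4% of their level in the granule cells of the same library. Granule cells here were the progenitors, the granule neurons and the unnamed cluster of 2852 cells. Their part in the result was not tested.

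The genotype effect in interneurons was set directly against that in granule cell progenitors of the same libraries. It was lower for 16 of the 18 G2/M genes and for 0 of the 16 G1/S genes (edgeR's quasi-likelihood test of the interaction), where 0.751% of 13718 genes were lower and 0.131% higher. DESeq2 called 14. The 2 not called were Aurka and Aurkb, at -1.63 ± 0.62 and -1.44 ± 0.44. The count was 9 with only the cells that had a GABAergic marker UMI and 0 when cell cycle genes were kept in the clustering. With Ccne1, an E cyclin, the difference ran the other way at 1.65 ± 0.61 and did not pass (edgeR adjusted p = 0.345). Its interneuron level was 3.88 and 4.48 CPM in NdpWT and 11.6 and 10.3 CPM in NdpKO, all from few UMIs.

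**Figure D5:**
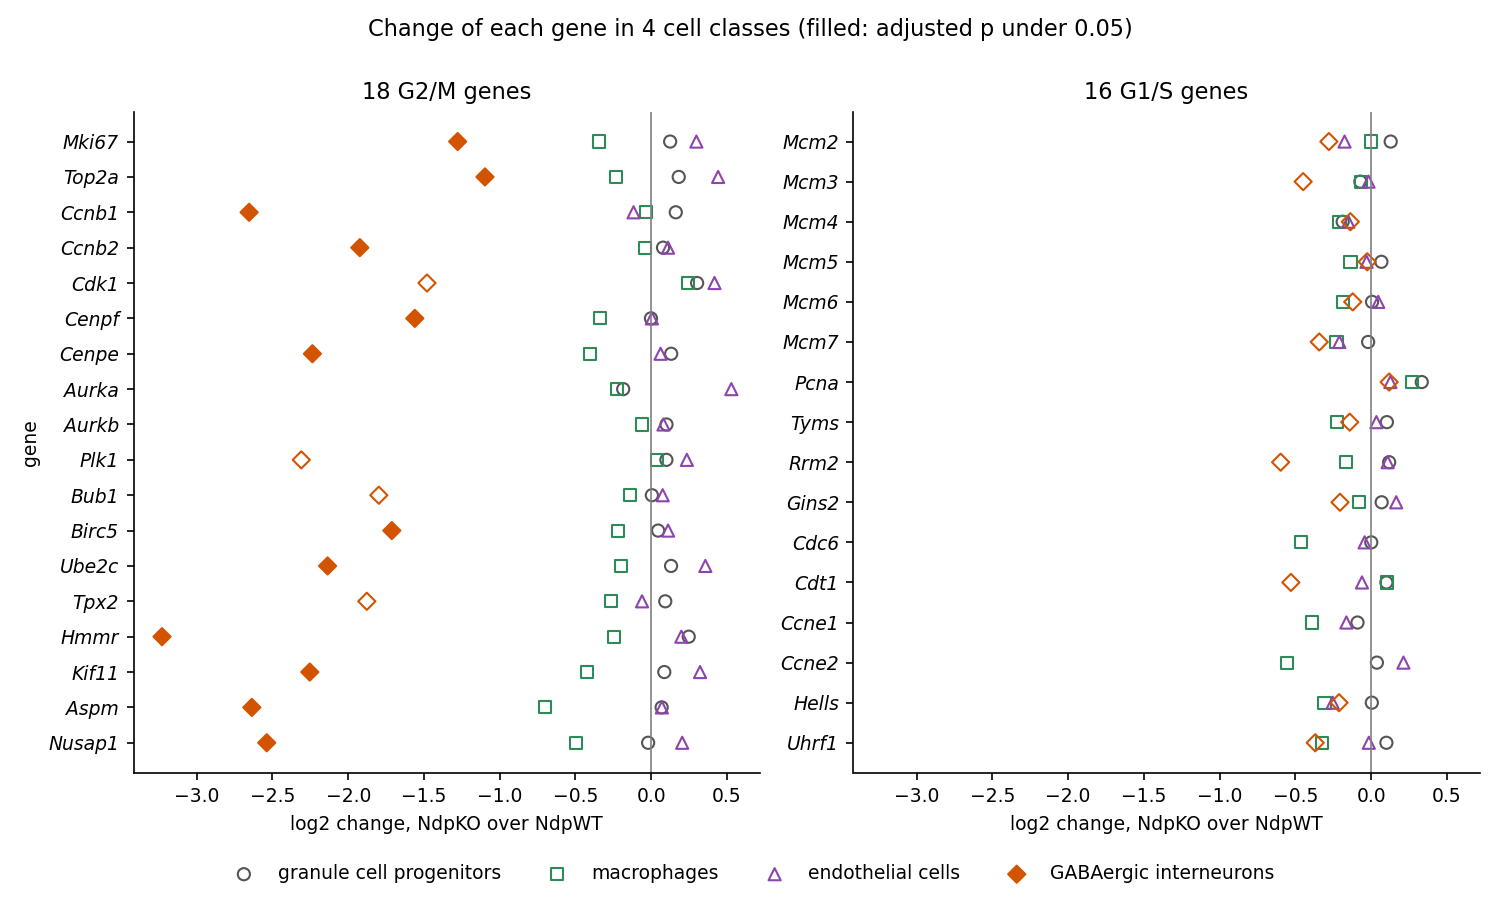
Log2 change of each G2/M and G1/S gene, NdpKO over NdpWT, in granule cell progenitors, macrophages, endothelial cells and GABAergic interneurons. Filled symbols have an edgeR adjusted p under 0.05, and only the interneuron class has any, 12 in number, all among the G2/M genes and all negative.

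In macrophages no cell cycle gene differed between genotypes past the threshold, although most estimates were below 0. The summed G2/M level was 732 and 948 CPM in NdpWT and 659 and 785 CPM in NdpKO, and the G1/S level was 487 and 530 CPM against 571 and 425 CPM. Both sums overlap. The edgeR test called 0 of 34 genes, DESeq2 called 0, and 2 had an unadjusted p under 0.05, both lower. Over all 12680 genes tested, 0.00789% were called higher and 0% lower. The median log2 change of the 34 genes was -0.22 and 29 of 34 were negative. Both knockout libraries lay below both controls for 9 of 34 genes, against 16.6% of all genes tested. Mki67 was at 120 and 165 CPM in NdpWT and 99.8 and 125 CPM in NdpKO, and Pcna was at 153 and 132 CPM against 209 and 134 CPM. Top2a was at 108 and 126 CPM in NdpWT and 99.3 and 100.0 CPM in NdpKO, with no overlap, and its change of -0.23 ± 0.13 did not pass. Mcm3, a helicase subunit, overlapped, at 57.1 and 60.3 CPM in NdpWT and 65.2 and 46.3 CPM in NdpKO. The 2 genes with an unadjusted p under 0.05 were Kif11 (-0.42 ± 0.19) and Nusap1, a spindle microtubule binding protein (-0.49 ± 0.16, edgeR adjusted p = 0.924).

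Set against granule cell progenitors, the genotype effect in macrophages passed for 0 of 34 genes in edgeR and 0 in DESeq2, while 0.0743% of 14801 genes were lower and 0.189% higher. The 9 genes with an unadjusted p under 0.05 were all G2/M genes and all lower, led by Mki67 at -0.45 ± 0.11 (edgeR adjusted p = 0.205). Without a filter on low counts, 3 genes passed, all lower. The shares above belong to the filtered fit, so the 3 cannot be weighed against all genes. The share of macrophages with at least 3 G2/M genes was 7.31% and 12.2% in NdpWT and 9.61% and 7.80% in NdpKO after thinning, with 171, 111, 149 and 116 cells left out. The genotypes overlap, and in all 4 libraries the macrophages lay above the granule neurons of the same library. The log2 change was -0.15 ± 0.36 (SE, edgeR adjusted p = 0.888). Unthinned shares were 24.6%, 30.7%, 28.2% and 21.1%. The macrophage class also held a cluster of 693 cells of low depth, with a median of 1768 UMIs. After thinning, its shares were 18.6% and 42.4% in NdpWT and 22.6% and 27.0% in NdpKO. The other macrophage cluster gave 6.78% and 10.8% in NdpWT and 7.58% and 6.07% in NdpKO. The macrophages with at least 8 G2/M genes carried their own markers, with a median of 10 to 11 of 11 macrophage markers detected. Of these 189 cells, 90.5% stayed macrophages when the cell cycle genes were kept in the clustering. Their summed macrophage markers were lower than in the other macrophages of every library. Granule cell markers in them were at 324 and 576 CPM in NdpWT and 458 and 443 CPM in NdpKO. The other macrophages had 324, 345, 240 and 364 CPM. The part of this RNA was not tested.

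In endothelial cells the controls differed from each other more than the genotypes did. The summed G2/M level was 529 and 1199 CPM in NdpWT and 1158 and 941 CPM in NdpKO, and the G1/S level was 462 and 533 CPM against 513 and 495 CPM. The edgeR test called 0 of 34 cell cycle genes, with 0 at an unadjusted p under 0.05, and DESeq2 called 0. In the same fit 0.997% of 12634 genes were higher and 1.43% lower. The median log2 change of the 34 genes was 0.07. Mki67 was at 68.9 and 167 CPM in NdpWT and 178 and 119 CPM in NdpKO, so NdpWT replicate 1 was lowest and the groups overlap. Top2a showed the same order, at 95.2 and 178 CPM in NdpWT and 220 and 157 CPM in NdpKO. Pcna was at 103 and 95.4 CPM in NdpWT and 116 and 99.7 CPM in NdpKO. Tyms, which makes thymidylate for DNA synthesis, was at 42.5 and 63.3 CPM in NdpWT and 59.0 and 51.6 CPM in NdpKO, and it overlapped as well. NdpWT replicate 1 was the lowest library for all 18 G2/M genes. Without NdpWT replicate 2, edgeR called 10 cell cycle genes higher in NdpKO, in a fit where 2.44% of 12984 genes were called higher and 2.15% lower. Among the 10 were Top2a at 0.99 (adjusted p = 0.000124) and Mki67 at 1.12 (adjusted p = 0.000142). These calls set 1 control library, assumed to vary as the knockouts do, against both knockouts. RNA of erythroid cells had the order of Mki67 and Top2a, while in the G2/M sum NdpWT replicate 2 was highest. In endothelial cells 8 erythroid markers, all with UMIs in every library, summed to 8333 and 21954 CPM in NdpWT and 23033 and 15755 CPM in NdpKO. Their part in the result was not tested.

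The genotype effect in endothelial cells minus that in granule cell progenitors passed for 0 of 34 genes in edgeR and 0 in DESeq2, with 0 at an unadjusted p under 0.05, where 0.395% of 14685 genes were higher and 0.456% lower. Without NdpWT replicate 2 it passed for 2 genes, both higher, against 0.417% of 14885 genes. The share of endothelial cells with at least 3 G2/M genes was 11.1% and 15.96% in NdpWT and 12.3% and 14.3% in NdpKO after thinning, with 63, 270, 70 and 113 cells left out. The log2 change was -0.07 ± 0.38 (edgeR adjusted p = 0.888), and unthinned shares were 22.5%, 28.5%, 22.2% and 24%. Of the 208 endothelial cells with at least 8 G2/M genes, 88.9% stayed endothelial when the cell cycle genes were kept in the clustering, and a median of 11 of 12 endothelial markers was detected in them. Their summed endothelial markers were lower than in the other endothelial cells of every library. Granule cell markers were higher in them, at 441 and 574 CPM in NdpWT and 239 and 635 CPM in NdpKO. The other endothelial cells had 226, 214, 165 and 198 CPM. The part of this RNA was not tested.

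The remaining classes gave no call either. The edgeR test and DESeq2 called 0 cell cycle genes in erythroid cells, mural cells, fibroblasts, arachnoid barrier cells, granule neurons and the class of monocytes or dendritic cells, where 0% to 0.0183% of genes were called in a direction by edgeR. In fibroblasts, where edgeR called 0.0129% of all genes higher, both knockout libraries lay above both controls for 3 of the 34 genes and below for 0, against 20.2% and 19.7% of all genes. In these classes 0 to 5 genes had an unadjusted p under 0.05. The 5 were in monocytes or dendritic cells, all lower, and there both knockout libraries lay below both controls for 21 of 34 genes, against 15.3% of all genes tested. Their summed G2/M level was 952 and 1103 CPM in NdpWT and 742 and 741 CPM in NdpKO, and their summed G1/S level was 621 and 622 CPM against 465 and 480 CPM, so neither sum overlaps. In granule neurons 33 of 34 estimates were negative, with 0 at an unadjusted p under 0.05. There NdpWT replicate 2 stood above the other libraries, at 799 CPM of G2/M RNA against 304 to 421 CPM. The cluster of low depth held 371 of its 977 granule neurons, at 3374 CPM, and its other granule neuron clusters were at 250 and 241 CPM. The part of that cluster in the result was not tested.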

How the data were processed

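Deposited 10x Chromium matrices held whole UMI counts per gene and barcode, made with Cell Ranger 6.1.2 against mm10, per the submitters' processing notes. Barcodes with under 500 genes, under 1000 UMIs or over 10% mitochondrial UMIs were left out. Scrublet called 91 to 271 doublets per library (1.52% to 2.29%, against 10.3% to 15.3% expected from loading), so doublets remain. Free RNA was not corrected. Cells were clustered with scanpy 1.11.5 and Leiden (resolution 1) on 2000 variable genes without 228 cell cycle and histone genes and 16 further genes that followed them, a removal and a naming rule adjusted after seeing the data. Clusters were named from marker lists.

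UMIs were summed per library and class and tested with edgeR 4.0.16 (TMM, filterByExpr minimum count 10, quasi-likelihood, Benjamini-Hochberg over all genes, threshold 0.05), with no block. DESeq2 1.42.0, RLE size factors, other filters and clusterings and leaving out each library were alternatives. With 2 libraries a group, nothing in the labels ties a replicate number to a litter match, and p-values measure the spread between these pooled runs. Counts per library differed beyond sampling noise. Gene positions came from GENCODE M21 (GRCm38). The edgeR steps were tested on simulated data.

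In full, with the value in every library, are shown the cell cycle genes called in a class (at most the 5 of lowest p) or, where none was called, the 2 G2/M and 2 G1/S genes of highest level, and the 3 other cycle genes of lowest p. Further named genes were picked after their values were seen. The cell cycle genes, the other lists and the markers were chosen with earlier results of these data known.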

Additional observations from a re-analysis of the deposited data

Results flagged for a closer look

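For 16 G2/M genes the genotype effect in the interneuron class differed from that in granule cell progenitors in a direct edgeR test of the interaction, as values of log2 change in interneurons minus log2 change in progenitors. The spindle genes were Hmmr at -3.52, Aspm at -2.68, Nusap1 at -2.48, Kif11 at -2.31 and Tpx2 at -2.01. The kinases, cyclins and their partners were Ccnb1 at -2.79, Plk1 at -2.45, Ccnb2 at -1.97, Bub1 at -1.80 and Cdk1 at -1.75. The kinetochore and chromosome genes were Cenpe at -2.40, Birc5 at -1.73, Cenpf at -1.58, Mki67 at -1.44 and Top2a at -1.27, and the ubiquitin-conjugating enzyme Ube2c was at -2.27. Over all 13718 genes of this test 0.751% were called lower. In NdpKO all 16 were lower in both libraries than in either NdpWT library of the interneuron class, as were 17.2% of the 8843 genes tested there. That order is no separate support, since the 16 were called from these same values. In the interneuron fit Ccnb1, Hmmr, Plk1 and Bub1 also met the filter on low counts through NdpWT alone. The values rest on the 36 cells with at least 8 G2/M genes, which hold 85.2% of the G2/M UMIs of the class. With the cell cycle genes kept in the clustering, which could then draw on the tested genes, 0 genes of the list were called.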

How the results depend on the processing

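Of the alternatives to the counts of called genes, the class differences and the shares, 153 were the same, 7 moved and 6 changed sign. A count of called genes was taken as the same when it was equal or close to the main count. A share was the same when it kept the direction and the side of the threshold. With the cell cycle genes kept in the clustering, which could then draw on the tested genes, both interneuron counts (12 by genotype, 16 against progenitors) went to 0. With only cells that had a GABAergic marker UMI, chosen after seeing the data, they went to 0 and 9, and all 5 interneuron genes shown in full lost the call at log2 changes of -2.80 (Hmmr), -2.50 (Ccnb1), -2.49 (Aspm), -1.85 (Cenpe) and -1.10 (Cenpf). Without a filter on low counts the macrophage effect against progenitors went from 0 to 3, with no share of all genes to set beside it. Leaving out 1 library, the endothelial count ranged from 0 to 10 by genotype and from 0 to 2 against progenitors, and the highest of each was without NdpWT replicate 2. The log2 change of the endothelial share, -0.07, was 0.21 after thinning to 1500 UMIs and 0.066 with at least 5 genes, and ranged from -0.23 to 0.30 with 1 library left out. That of the macrophage share, -0.15, was 0.016 without cells carrying granule markers, and ranged from -0.49 to 0.25 with 1 library left out. None of these shares was called. With 1 library left out, uncalled genes also changed sign: Mki67 (-0.012 to 0.28) and Mcm7 (-0.094 to 0.061) in progenitors, Mki67 (-0.17 to 1.12) and Tyms (-0.20 to 0.38) in endothelial cells, and Pcna (-0.088 to 0.55) and Mcm3 (-0.34 to 0.16) in macrophages. Without cells carrying granule markers, Top2a (0.27) and Mcm3 (0.014) in macrophages and Pcna (-0.093) and Tyms (-0.29) in endothelial cells changed sign, as did Tyms (-0.011) under the stricter cell filter. The cause was not tested.

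Interneuron calls over all genes numbered 24. They were 15 with DESeq2, 84 without the filter on low counts and 47 to 108 with 1 library left out. With the replicate number as a block they were 82, with 15 cell cycle genes in place of 12, and the block changed no other count of cell cycle genes by genotype. Same-numbered libraries deviated together (r = 0.114 to 0.266 over 10 classes), as a hint only, since there are 2 pairs. Leaving out cells with granule markers left too few interneurons to fit. With 81 to 225 interneurons per library, the SE of the log2 change of a tested G1/S gene was 0.21 to 0.71.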
